A study of Glycine max with 8 samples.

Results

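Open chromatin of seedling leaves was compared with that of seedling roots in soybean (Glycine max, strain Williams 82), from lists of MNase hypersensitive sites. The leaf group consisted of trifoliate leaves and the root group of roots, both from greenhouse seedlings at stage V2 under 12 h of light at 28 °C and 12 h of dark at 25 °C. Each tissue had 2 libraries, called here leaf 1, leaf 2, root 1 and root 2, out of 8 libraries and 4 tissues in the series. The flower and seed libraries serve as context and came from 1 g of ground tissue each. Seed plants had the same light and dark regime as the seedlings, and none is recorded for flower. The stage given for seed differs between label fields. Ground tissue, 0.5 g for leaf and 1 g for root, was fixed with 1% formaldehyde, its nuclei were treated with 0.01, 0.03 or 0.1 unit of micrococcal nuclease (MNase) or left without it, and DNA below 100 bp was sequenced. The root lists carry no score and hold sites down to 49 bp, while the leaf lists carry a score and start at 100 bp, so sites may have been called differently in the tissues. Tissue, amount of material and calling cannot be told apart, and this touches every leaf and root count and width given here. The labels leave unsaid whether both libraries of each tissue were taken from different plants.

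Regions were chosen by position and width alone. Sites of at least 100 bp were kept in every list, since the leaf lists hold none shorter. The reproducible regions of a tissue are the stretches of at least 20 bp common to a site of its first and a site of its second library. This gave 61056 regions in leaf and 1482 in root, together 62538 of the 148218 reproducible regions of the 4 tissues. A region was called shared when it overlapped a reproducible region of the other tissue by at least 1 bp, leaf-only or root-only when it met no kept site in either library of the other tissue, and partly met when it lay between these definitions.

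MNase cuts DNA that is not covered by nucleosomes or other bound proteins, so that light digestion releases short fragments first from exposed stretches. In plants such stretches are best known from promoters, enhancers and other places where transcription factors bind. Soybean chromosomes carry most of their genes in the arms towards the ends, whereas the middle around the centromere is rich in transposable elements. Leaves and roots of a seedling share the same genome but differ in the genes they use, photosynthesis in leaves and uptake of water, minerals and nitrogen-fixing partners in roots being the textbook examples. Each library came from whole tissue, so a site exposed in few cells and a site weakly exposed in many cannot be told apart. Genes and base sequence at the sites were not analysed here, and regions are given by position on the chromosomes of the deposited lists, counting from 1, without a named genome build.

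Kept sites were far more numerous in leaf than in root. Leaf 1 held 75471 and leaf 2 held 74278 sites of at least 100 bp, against 3192 in root 1 and 3355 in root 2. They were 21.0% of 15185 and 17.7% of 18957 root sites after removal of repeated lines, the rest being shorter than 100 bp. Covered length was 17.3 and 16.3 Mb in the leaf libraries and 0.534 and 0.540 Mb in the root libraries. The mean number of kept sites was 74875 ± 844 (SD, n = 2) in leaf and 3274 ± 115 (SD, n = 2) in root. The number of reads behind each list is unknown, and a shorter list need not mean less open chromatin.

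Root sites coincided with leaf sites at least as often as with sites of the other root library. Of the root 1 sites, 51.5% (95% Wilson interval 49.7 to 53.2) met a leaf 1 site and 64.6% (62.9 to 66.2) a leaf 2 site, while 45.4% (43.7 to 47.2) met root 2. Of the root 2 sites, 54.1% (52.4 to 55.7) met leaf 1, 64.1% (62.5 to 65.7) met leaf 2 and 43.5% (41.8 to 45.1) met root 1. The 4 flower and seed lists met from 39.8% to 55.9% of the sites of a root library. A leaf list offers far more sequence to meet than a root list, and by the Jaccard index, the length in common divided by the length covered by either list, the root libraries were closest to each other, at 0.292, against 0.0149 to 0.0203 for the 4 pairs of a leaf and a root library. Intervals for shares cover counting error only.

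**Figure D1:**
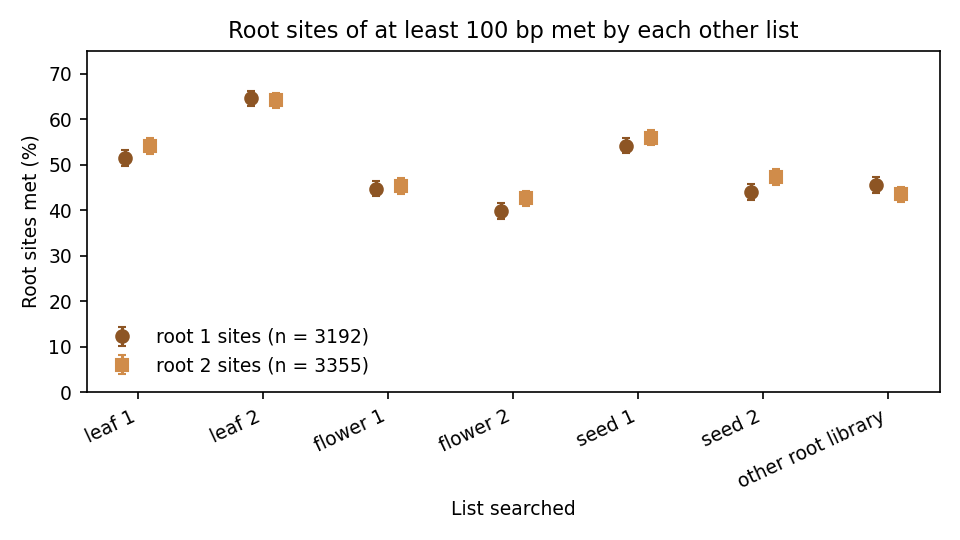
Percentage of the kept sites of root 1 (circles) and root 2 (squares) that overlap a site of each other list by at least 1 bp, with 95% Wilson intervals as bars. Leaf 2 met the most root sites, 64.6% and 64.1%, and the other root library met 45.4% and 43.5%.

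The leaf libraries were not alike in this respect. Leaf 2 met more root sites than leaf 1 did, although its list was the shorter. In the 6 windows of 1 Mb with the most kept root sites, leaf 1 held 280 sites (0.371% of its list) and leaf 2 held 538 (0.724%). Root 1 held 580 (18.2%) and root 2 held 448 (13.4%) in those windows. The number of root-only regions, the share of them met by flower or seed, the score difference and the width difference of shared regions are therefore also given without a leaf library.

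By the definitions above, most reproducible root regions were also leaf regions, while very few leaf regions were root regions. Of the 1482 root regions, 852 (57.5%, interval 55.0 to 60.0) were shared, 371 (25.0%) were partly met and 259 (17.5%, interval 15.6 to 19.5) were root-only. Of the 61056 leaf regions, 860 (1.41%, interval 1.32 to 1.51) were shared, 1539 (2.52%) were partly met and 58657 (96.1%) were leaf-only. Merging overlapping regions left 833 places reproducible in both tissues. With a single library standing for root, 2.81% of the leaf regions were shared without root 1 and 2.56% without root 2, at 1669 and 1515 places. Of the root sites in these settings, 50.4% and 48.0% were shared. The shared part of root regions was 46.1% with root sites of all widths and 39.6% with leaf sites above the median score. The list lengths differ in the same direction as these shares. When each leaf list was cut to its highest-scoring sites, as many as the kept sites of the root library with the same number, 13.7% of the root regions and 12.0% of the leaf regions were shared.

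The count of root-only regions rests on which leaf libraries could exclude a region and on whether a region had to occur in both root libraries. It was 319 without leaf 1 and 569 without leaf 2. Without root 1 it was 1085 and without root 2 it was 1021. There all kept sites of a single root library replaced the intersections, and both leaf libraries could still exclude. Among the 371 partly met root regions, 310 met a leaf 2 site alone, 60 a leaf 1 site alone and 1 met both at separate places. Partly met leaf regions were more evenly divided, with 684 meeting root 1 alone and 836 meeting root 2 alone.

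Leaf sites crowded towards the chromosome ends, and root sites of at least 100 bp, but not the root lists as a whole, lay more towards the middle. The outer part of a chromosome was taken as the 20% of its span at each end and the inner part as the middle 60%. The outer part held 68.1% of the leaf 1 and 67.6% of the leaf 2 sites, but 27.1% of the root 1 and 34.3% of the root 2 sites. The flower and seed lists were like leaf, with 63.6% (seed 2) to 68.7% (flower 2) of their sites in the outer part. The root lists thus stood apart from those of the other tissues. The log2 ratio of sites per Mb, outer over inner, was 1.68 in leaf 1, 1.65 in leaf 2, -0.84 in root 1 and -0.35 in root 2. Both leaf values lay above 0 and both root values below it, with tissue means of 1.66 ± 0.022 (SD, n = 2) and -0.60 ± 0.35 (SD, n = 2). With root sites of all widths the root values were -0.02 in root 1 and 0.31 in root 2, so the lean of root to the middle was not present in the full lists, and both stayed below the leaf values. Without the 6 windows densest in root sites, root 1 stood at -0.43 and root 2 at -0.03. The difference of 2.26 exceeded the spread between libraries, but 4 libraries allow only 6 labellings, so the exact two-sided permutation p = 0.333 is the smallest this design can give.

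The direction held chromosome by chromosome with a single exception. Both leaf libraries lay above both root libraries on 19 of 20 chromosomes, and on 12 of 20 both leaf values were above 0 and both root values below 0. Chromosomes 18 and 5, singled out after their values were seen, showed wide contrasts, with 2.16 and 2.12 in leaf against -1.65 and -1.10 in root on the former and 2.10 and 2.04 against -1.74 and -1.03 on the latter. On chromosomes 1, 9, 11, 13 and 16 both root libraries were above 0. Chromosome 13 was the exception to the order, with -0.23 and -0.18 in leaf against 1.77 and 1.52 in root. The window of chromosome 13 that starts at 38000001, chosen after its values were seen, held 35 of the 157 root 1 sites and 59 of the 198 root 2 sites of that chromosome. Without this window the values were -0.44 and -0.39 in leaf and 1.21 and 0.65 in root, so the order on chromosome 13 was the same.

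**Figure D2:**
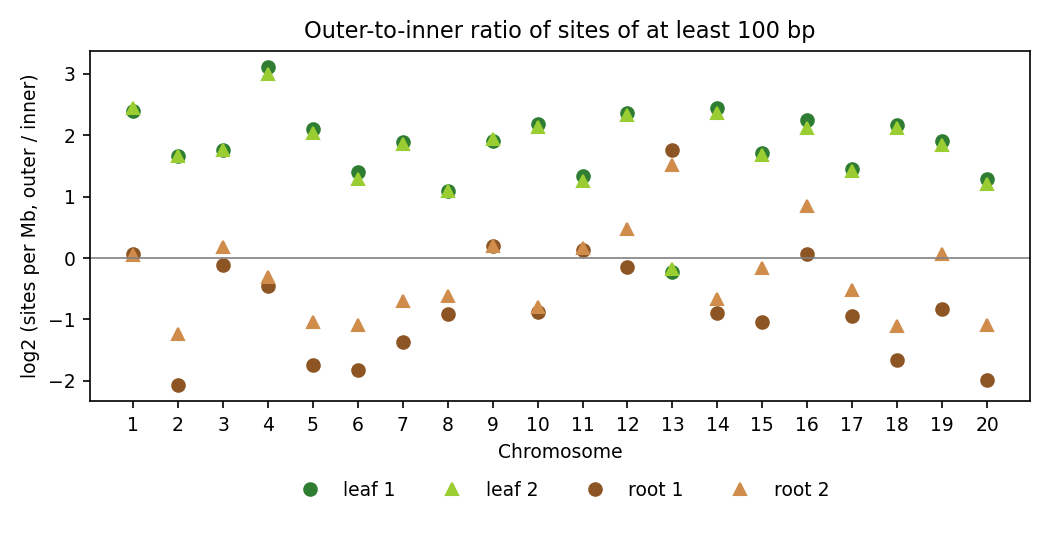
Log2 ratio of kept sites per Mb in the outer over the inner part of each of the 20 chromosomes, for leaf 1 and leaf 2 (green) and root 1 and root 2 (brown). The leaf values lie above the root values on 19 of 20 chromosomes and below them on chromosome 13.

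Regions shared by leaf and root lay, like the root regions, more towards the middle than most leaf regions did. They make up 57.5% of the root regions but 1.41% of the leaf regions, so their position is tied to that of root by definition. These positions hold for sites of at least 100 bp, and the root lists of all widths had no lean to the middle. In the outer part were 69.3% of the leaf-only regions (40664 of 58657), against 22.7% of the shared leaf regions (195 of 860) and 14.3% of the root-only regions (37 of 259). The median distance from the nearer chromosome end was 12.7% of the chromosome span for leaf-only, 34.3% for shared leaf regions and 36.7% for root-only regions. In the outermost 5% of the span lay 20.5% of the leaf-only regions, 4.07% of the shared leaf regions and 0.772% of the root-only regions, which is 2 regions. Between 35% and 40% of the span from an end lay 18.8% of the shared and 29.7% of the root-only regions, but 3.64% of the leaf-only regions. This class held 162 shared leaf and 77 root-only regions, and a few windows of 1 Mb centred in it weighed heavily. Those on chromosome 6 from 31000001 and 32000001 and on chromosome 5 from 16000001 held 13, 37 and 17 shared leaf regions. They held 7, 13 and 14 root-only regions, in the same order. The profile without these windows was not computed.

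**Figure D3:**
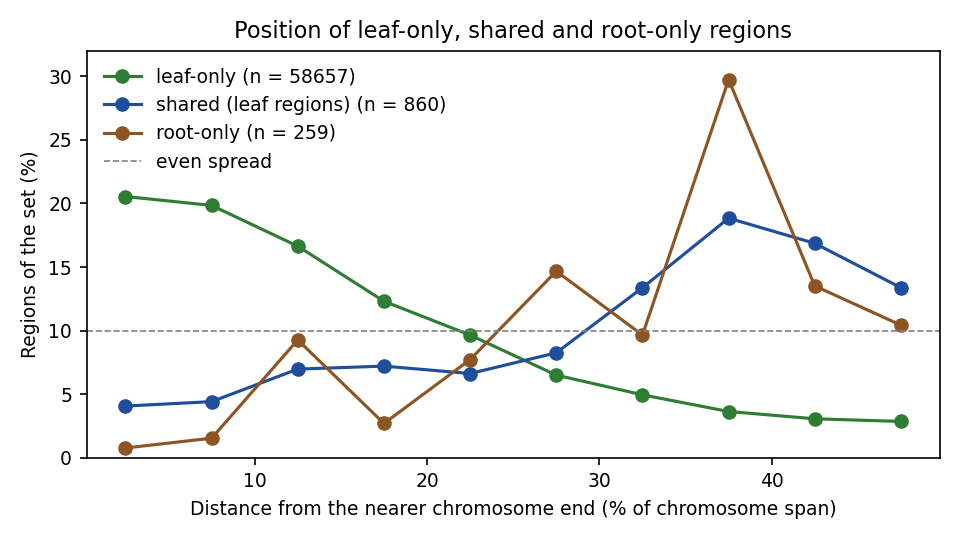
Percentage of the leaf-only, shared (leaf side) and root-only regions in steps of 5% of the chromosome span from the nearer end, with the dashed line at an even spread. Leaf-only regions fall from 20.5% in the outermost step to 2.86% in the middle, whereas shared and root-only regions peak between 35% and 40%, at 18.8% and 29.7%. Single windows of 1 Mb, on chromosome 5 from 16000001 and on chromosome 6 from 31000001 and 32000001, weigh heavily in that step.

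Seen from each tissue, the outer and inner parts differed in how much was shared, in opposite directions. In the outer part, 202 of 271 root regions (74.5%, interval 69.0 to 79.4) were shared with leaf, against 650 of 1211 (53.7%, 50.9 to 56.5) in the inner part. For leaf regions the order was reversed, with 195 of 41780 (0.467%, 0.406 to 0.537) shared in the outer part and 665 of 19276 (3.45%, 3.20 to 3.72) in the inner part. Root-only regions made up 13.7% of the outer and 18.3% of the inner root regions, and these intervals overlapped. The outer part also holds more leaf regions for a root region to meet, with an outer-to-inner ratio per Mb of 3.25. The inner part likewise holds more root regions for a leaf region to meet, with a ratio of 0.336. The part of these densities in either difference was not tested.

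Chromosomes ranked differently by leaf-only and by root regions. Chromosome 13 held the most leaf-only regions per Mb, 94.0, followed by chromosome 11 with 86.7, and chromosome 14 the fewest, 48.4. Shared leaf regions were densest on chromosomes 6 and 2, at 1.75 and 1.73 per Mb, and sparsest on chromosome 11, at 0.259 per Mb. Root regions numbered from 17 on chromosome 11 to 165 on chromosome 6, with 140 on chromosome 2. Chromosome 11, second in leaf-only density, was thus last in both shared density and root regions. It is also the chromosome whose lines occur a second time in both root lists, and the repeated lines had been removed before counting.

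The share of root regions met by leaf also varied between chromosomes. It ran from 34.5% on chromosome 10 to 78.1% on chromosome 17, with a median of 58.7%. Chromosome 10 had the highest share of root-only regions, 44.8% (26 of its 58 root regions), and chromosome 17 the lowest, 4.69% (3 of 64). Root-only regions were densest on chromosomes 10 and 5, at 0.504 and 0.497 per Mb, and sparsest on chromosome 16, at 0.0528 per Mb, which is 2 regions. With 17 to 165 root regions per chromosome these shares carry wide counting errors.

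Root regions were narrower than leaf regions, and root-only regions were the narrowest. Median width was 183 bp over all leaf regions and 132 bp over all root regions. Within leaf the medians were 174 bp for shared (interquartile range 128 to 283), 265 bp for partly met (188 to 357) and 182 bp for leaf-only regions (133 to 253). Within root they were 152 bp for shared (118 to 213), 121 bp for partly met (105 to 147) and 108 bp for root-only regions (95.5 to 129). The difference of 22 bp between the leaf and the root side of shared regions was 54 bp without leaf 1, 32 bp without leaf 2, 71 bp without root 1 and 59 bp without root 2. In these 4 settings whole sites of a single library replaced the intersections of that tissue, so the widths are not alike in kind. Within pairs of overlapping leaf and root regions the median difference, leaf minus root, was 3 bp. The difference between the medians was 126.5 bp with root sites of all widths and 126 bp with equal numbers of sites. It was 61 bp with leaf sites above the median score and 44 bp without the 6 windows densest in root sites. The library medians of kept sites were 201 and 190 bp in leaf and 139 and 134 bp in root.

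The wider a root region was, the more often leaf shared it. Of the root regions below 100 bp, 37.7% were shared, rising to 46.7% from 100 to below 150 bp, 68.6% from 150 to below 200 bp, 83.3% from 200 to below 300 bp and 97.3% (108 of 111) from 300 bp. Root-only regions went the other way, from 36.8% below 100 bp to 0 of 111 from 300 bp, which allows a share of up to 2.70%. A wide region also has more sequence with which to meet a leaf site, and the part of this in the trend was not tested. The shared part of leaf regions showed no such rise, with 0.734%, 1.97%, 1.05%, 1.06% and 1.95% in the same 5 classes. Leaf-only regions made up 98.4%, 96.9%, 97.4%, 95.9% and 91.9% of these classes. Leaf regions from 300 bp thus most often met some kept root site, and the same limit of width holds there.

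Where leaf and root regions overlapped, they mostly lay on top of each other. The 879 overlapping pairs shared a median of 130 bp, their centres were a median of 16.5 bp apart, and 75.3% of the centres were within 50 bp. The root region lay wholly inside the leaf region in 308 pairs (35.0%) and the leaf region wholly inside the root region in 234 (26.6%). Leaf was the wider in 459 pairs, root in 411, and 9 were equal.

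That balance came from a different picture in the outer and the inner parts. In the 204 outer pairs the leaf region had a median of 276.5 bp and the root region 133.5 bp, and leaf was the wider in 83.8%. In the 675 inner pairs the medians were 158 bp in leaf and 162 bp in root, and leaf was the wider in 42.7%. Centres were a median of 32.2 bp apart in the outer pairs and 13.5 bp in the inner pairs.

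Reproducible root regions were few but gathered in runs. The median gap from one region to the next was 4615 bp in leaf and 5101 bp in root, close to each other although leaf had 64.3 regions per Mb and root 1.56. In root, 28.9% of the regions had the next one within 1 kb, against 21.2% in leaf. Within 10 kb the order turned, with 54.1% in root and 69.7% in leaf. With equal numbers of leaf and root sites the difference within 10 kb, leaf minus root, fell from 15.6 to -46.7 percentage points. That setting keeps only the highest-scoring leaf sites, so list length and score change together and cannot be told apart. The difference was 29.7 percentage points without root 1. Root gaps split by part, with a median of 3663 bp in the inner and 327006 bp in the outer part, whereas leaf gaps had medians of 6299 and 4087 bp.

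**Figure D4:**
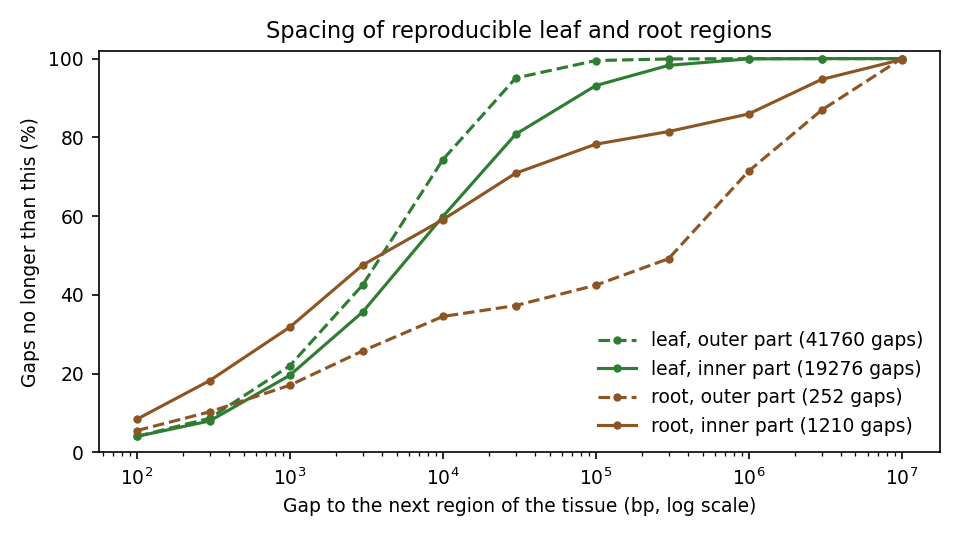
Cumulative percentage of gaps between neighbouring reproducible regions, by gap length on a log axis, for leaf (green) and root (brown) in the outer (dashed) and inner (solid) part. Up to 1000 bp the inner root regions have the highest percentage, 31.8%, while outer root regions have a median gap of 327006 bp.

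Runs were counted as series of regions with gaps of at most 10 kb. Root had 680 runs, of which 457 were single regions, and 612 of its regions (41.3%) lay in 71 runs of 5 or more. In leaf, 56.4% of the regions lay in such runs. The root run with the most regions, 29, spanned 41503 bp on chromosome 18 from 39372135 to 39413637, and 22 of its regions were shared with leaf and 3 root-only. The next was on chromosome 13 from 38801872 to 38859117, with 26 regions of which 17 were shared. It lay entirely within the leaf run with the second most regions, 50, from 38797118 to 38859178. The root run that followed, 24 regions on chromosome 15 from 19577154 to 19603371, had 21 shared regions.

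The leaf run with the most regions, 55, lay on chromosome 19 from 43705403 to 43894146, with 43 leaf-only and 5 shared regions. The next after the chromosome 13 run, with 49 regions on chromosome 11 from 3613398 to 3761090, had 48 leaf-only regions and met no reproducible root region.

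Shared regions were unevenly spread over windows of 1 Mb. The 10 windows of 1 Mb with the most shared leaf regions held 31.9% of them, and the 10 with the most root-only regions held 35.5% of those, whereas the corresponding 10 windows held 3.51% of the leaf-only regions. Shared leaf regions occurred in 294 of 956 windows, root-only regions in 106 and leaf-only regions in 951. The sets number 860 shared, 259 root-only and 58657 leaf-only regions. A small set fills fewer windows and puts a larger share in its fullest ones by count alone, and the part of this was not tested. In the 6 windows with the most kept root sites, 177 of 245 leaf regions (72.2%, interval 66.3 to 77.5) were shared, against 683 of 60811 (1.12%) elsewhere. Of the root regions, 170 of 351 (48.4%, 43.3 to 53.6) were shared inside these windows and 682 of 1131 (60.3%, 57.4 to 63.1) elsewhere. These windows were chosen by their root sites, so the leaf share within them is a description.

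The window with the most shared regions was on chromosome 2, starting at 20000001. It held 111 root 1 and 92 root 2 sites, 61 leaf 1 and 108 leaf 2 sites, and 42 of its 55 leaf regions and 42 of its 78 root regions were shared. Next came chromosome 6 from 32000001, with 107 and 74 root sites, 45 and 98 leaf sites and 37 shared leaf regions, and chromosome 20 from 14000001, with 99 and 64 root sites, 43 and 83 leaf sites and 35 shared leaf regions. In all 3 windows leaf 2 held more sites than leaf 1. Their centres stood at 42.2%, 63.2% and 30.3% of the chromosome span.

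Root-only regions peaked on chromosome 5 in the window from 16000001, with 14 of 51 root regions and 17 more shared, and 0 of its 20 leaf regions leaf-only. The window on chromosome 6 from 32000001 followed with 13. The window on chromosome 9 from 44000001 came next and was of another kind. Its centre lay at 88.7% of the span, leaf held 108 and 94 sites there against 19 and 18 in root, and 12 of its 14 root regions were root-only while 81 of its 83 leaf regions were leaf-only. The windows with the most leaf-only regions lay near chromosome ends, on chromosome 11 from 3000001 with 231, chromosome 1 from 52000001 with 221 and chromosome 6 from 3000001 with 216. Root 1 had 6, 1 and 6 kept sites in them and root 2 had 2, 1 and 5.

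The longest shared regions were sites of almost the same extent in every library. The longest stretch common to leaf and root, 3471 bp on chromosome 15 from 19588804 to 19592274, was a site of 3471 and 3473 bp in leaf and of 3479 and 3481 bp in root, and its flower sites of 3464 and 3466 bp and seed sites of 3490 and 3496 bp were of like extent. It was followed by 1637 bp on the same chromosome from 19586861 to 19588497, with sites of 1671 and 1652 bp in leaf and 1651 and 1662 bp in root. Another on chromosome 15, from 19592391 to 19593146, measured 756 bp, with sites of 774, 771, 769 and 766 bp in leaf 1, leaf 2, root 1 and root 2. These 3 lay within the chromosome 15 run described above. The others were 1224 bp on chromosome 19 from 5356281 to 5357504 and 1104 bp on chromosome 17 from 23596300 to 23597403. All 5 had leaf scores above percentile 99.9 in both leaf libraries.

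The 5 longest leaf-only regions spanned 907 to 1038 bp. The longest was on chromosome 5 from 7353741 to 7354778, 1038 bp, with sites of 1077 and 1038 bp in leaf and the nearest kept root site 32256 bp away. Flower libraries had sites of 825 and 759 bp there and seed libraries 408 and 232 bp. The second, on chromosome 6 from 11181764 to 11182747, spanned 984 bp, with sites of 1013 and 984 bp in leaf, 815 and 958 bp in flower and 665 bp in seed 1, none in seed 2, and the nearest kept root site 2986 bp away. The next were 925 bp on chromosome 17 from 1250673 to 1251597, 924 bp on chromosome 1 from 52347316 to 52348239 and 907 bp on chromosome 11 from 26687925 to 26688831, and each was met by all 4 flower and seed libraries. Over the 5 regions, leaf 1 scores stood between percentiles 85.9 and 92.3 and leaf 2 scores between 89.9 and 99.4.

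Root-only regions were short, and the 5 longest all lay in the inner part. The longest was on chromosome 18 from 40704499 to 40704782, 284 bp, with sites of 292 and 284 bp in root and the nearest leaf site 1999 bp away. The second, on chromosome 6 from 32113049 to 32113302, spanned 254 bp with root sites of 266 and 261 bp, and the nearest leaf site was only 47 bp away. The others were 249 bp on chromosome 4 from 28328919 to 28329167, 242 bp on chromosome 4 from 13921106 to 13921347 and 223 bp on chromosome 10 from 19082583 to 19082805, with the nearest leaf site at 130, 301 and 573 bp. A flower 1 site met 3 of these 5, and no flower 2 or seed site met any.

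Most root-only regions had a leaf site within 10 kb. The nearest kept leaf site was a median of 1432 bp away, 119 of 259 (45.9%) had one within 1 kb and 201 (77.6%) within 10 kb, and 11 lay more than 100 kb from any. Leaf held 64.3 reproducible regions per Mb, and how often any place lies this near a leaf site was not computed. Leaf-only regions were a median of 90036 bp from the nearest kept root site, and 46.5% had none within 100 kb. The root lists hold far fewer sites to be near to.

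Flower and seed sites met root-only regions less often than the other sets. Root-only regions were chosen for meeting no leaf site, and 62.6% to 77.3% of the sites of a flower or seed list met a given leaf list. They were also the narrowest set. The part of choice and width in the difference was not tested. Over all leaf regions 73.9% met a flower site and 81.0% a seed site, and over all root regions 56.8% and 67.6%. Leaf-only regions, which are nearly all leaf regions, were close to the former, at 73.4% (interval 73.0 to 73.7) for flower and 80.5% (80.2 to 80.8) for seed, in either library. Of the shared leaf regions, 79.4% (76.6 to 82.0) met flower and 91.6% (89.6 to 93.3) met seed. Root-only regions met flower in 16.2% (12.2 to 21.2) and seed in 20.1% (15.7 to 25.4). All 4 flower and seed libraries met 31.5% of the leaf-only, 53.5% of the shared leaf regions and 1 of the 259 root-only regions. In all, 175 root-only regions (67.6%) met neither tissue, against 10.2% of the leaf-only regions. The share of root-only regions that met flower or seed was 32.4%, and it was 37.9% without leaf 1, 45.9% without leaf 2, 20.7% without root 1 and 20.1% without root 2. With equal numbers of leaf and root sites it was 65.3%, with root sites of all widths 20.5% and with sites of at least 150 bp 18.4%.

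**Figure D5:**
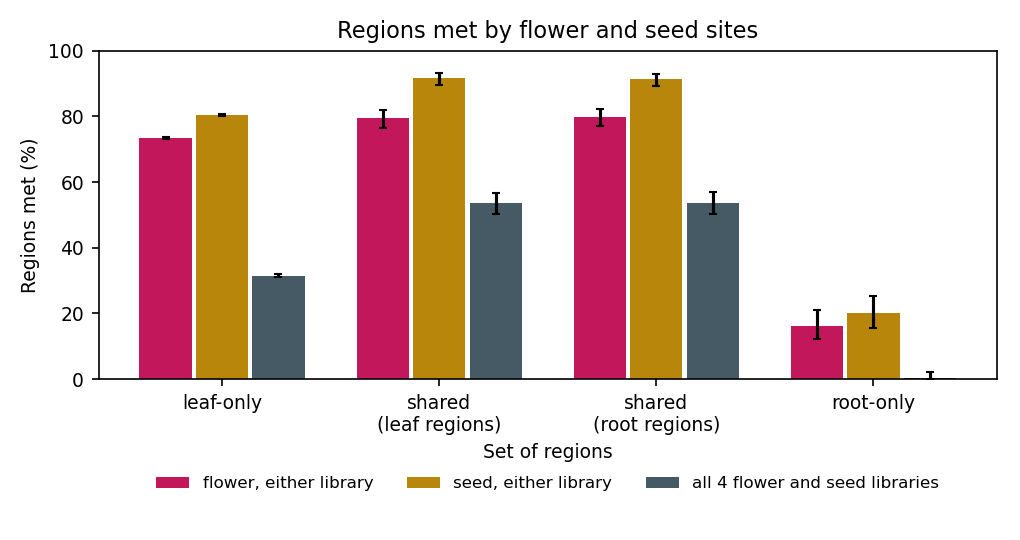
Percentage of leaf-only, shared and root-only regions that overlap a site of either flower library, of either seed library, or of all 4 flower and seed libraries, with 95% Wilson intervals. Leaf-only and shared regions are met in 73.4% or more by flower, root-only regions in 16.2%.

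Shared regions had higher leaf scores than leaf-only regions in the full leaf lists. The score is the authors' own value per site in the leaf lists, without a stated definition, and was used only as a percentile within a list, so no root counterpart exists. In leaf 1 the median percentile was 72.9 for sites with a shared region and 58.9 for sites with a leaf-only region, and in leaf 2 it was 89.1 and 57.5. Sites with a partly met region stood above the shared ones in leaf 1, at 88.4, and below them in leaf 2, at 85.7. The mean difference of 22.8 percentile points between shared and leaf-only sites was 1.65 with equal numbers of leaf and root sites, where only the highest-scoring leaf sites remain. It was 28.8 without leaf 1 and 21.8 without leaf 2. Outer shared sites stood at a median percentile of 94.7 in leaf 1 and 93.2 in leaf 2, inner shared sites at 66.1 and 87.8. Among leaf-only sites the outer and inner medians differed little, 59.2 and 58.1 in leaf 1 and 57.7 and 56.8 in leaf 2.

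Leaf sites of the highest score decile met root most often. Of those, 4.24% (interval 3.81 to 4.72) in leaf 1 and 5.71% (5.20 to 6.26) in leaf 2 met sites in both root libraries. In the other deciles the share was between 0.663% and 1.13% in leaf 1 and between 0.417% and 1.74% in leaf 2.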

How the data were processed

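The authors deposited a list of sites per library, with chromosome, start and end, and in the leaf, flower and seed lists a score of undefined scale. The submitters' processing notes name Trimmomatic 0.36 and BWA 0.7.15-r1140. Caller, threshold and build were not given in the sources used here. Depth is unknown. Repeated root lines, all on chromosome 11, were dropped (479 in root 1, 649 in root 2), and starts were taken to count from 0. A RefSeq gene table was not used, because the build of the lists is not named. Overlaps were computed in Python 3.11.15 with numpy 2.4.6, pandas 2.3.3 and scipy 1.17.1, and checked on planted sites. The span of a chromosome is the last site end over the 8 libraries, 948.9 Mb in all. Named were the 5 longest regions of each set, the 3 windows of 1 Mb with the most regions of each set, and the 3 runs of each tissue with the most regions. The sets and lists were chosen with earlier results of these data known. The only planned test was an exact permutation of the 4 libraries. An exact swap of labels within same-numbered pairs was added after seeing the data. Alternatives changed the width minimum, overlaps, leaf score threshold, list length, chromosomes, outer part and libraries.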

Additional observations from a re-analysis of the deposited data

Results flagged for a closer look

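For sites of at least 100 bp, the contrast between the outer and the inner part of the chromosomes went in opposite directions in the libraries of leaf and of root. The log2 ratio of kept sites per Mb was 1.68 in leaf 1 and 1.65 in leaf 2, and -0.84 in root 1 and -0.35 in root 2. With root sites of all widths, root 1 stood at -0.02 and root 2 at 0.31, so the opposite directions did not hold there. The difference between the tissues, for sites of at least 100 bp, was 2.26, and the exact permutation p = 0.333 is the smallest that 4 libraries allow. The root lists differ from the leaf lists in format and shortest site, and the part of this in the difference was not tested.

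Root sites shorter than 100 bp, which took no part in the comparison, met some of the leaf-only regions. Such sites of root 1 met 2938 of the 58657 leaf-only regions (5.01%) and those of root 2 met 3620 (6.17%). Sites of either root library met 5933 (10.1%), and 625 (1.07%, interval 0.986 to 1.15) were met in both. The share over all leaf regions was not computed, and how many would meet by position alone was not tested. These 625 regions had a median width of 275 bp, and their median leaf scores stood at percentile 88.1 in leaf 1 and 85.6 in leaf 2. Of the 625, 62.1% lay in the outer part.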

How the results depend on the processing

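The outer-to-inner difference kept leaf above root under all alternatives, from 1.52 with root sites of all widths to 2.57 without chromosome 13, but root was no longer below 0 in both libraries in the former (-0.02 and 0.31). With root sites of all widths, 46.1% of root and 2.80% of leaf regions met the other tissue, with 1684 shared and 1314 root-only regions. With sites of at least 150 bp, 0.833% of leaf regions met root, with 358 shared and 114 root-only regions. With leaf sites above the median score, the shares were 39.6% of root and 1.99% of leaf regions, with 27160 leaf-only and 581 root-only regions, and the difference in regions followed by another within 10 kb, leaf minus root, turned from 15.6 to -6.12 percentage points. With equal numbers of sites the shares were 13.7% and 12.0%, with 190 shared, 1147 leaf-only and 1092 root-only regions, the spacing difference was -46.7, the median score difference between shared and leaf-only sites fell from 22.8 to 1.65 percentile points, and 65.3% of root-only regions met flower or seed. Fewer leaf sites enter both of these settings. When only reproducible leaf regions could exclude a root region, 630 were root-only. Without the 6 windows densest in root sites the shares were 60.3% and 1.12%. Leaving out a library in turn gave 48.0% to 78.5% of root and 1.21% to 2.81% of leaf regions meeting the other tissue, 888 to 1669 shared, 59341 to 72911 leaf-only and 319 to 1085 root-only regions, and outer-to-inner differences from 2.02 to 2.51. With same-numbered libraries as pairs, a setting added after seeing the data, the replicate block left the difference at 2.26, with an exact two-sided permutation p = 0.5, the smallest that 2 pairs allow. The unknown read depth and calling threshold limit every statement about a site that is not listed.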

Other observations

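Partly met regions of leaf and root were unlike each other. The 1539 leaf regions that met a root site in a way that was not reproducible were wide, with a median of 265 bp, 59.8% of them lay in the outer part, and all 4 flower and seed libraries met 72.0% of them. Their sites had median scores at percentile 88.4 in leaf 1 and 85.7 in leaf 2. The 371 such root regions were narrow, with a median of 121 bp, 8.63% lay in the outer part, and all 4 flower and seed libraries met 10 of them (2.70%).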
